A study of Mus musculus with 18 samples.

Results

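Radial glia in which pallial transcription factor RNA was detected and RNA of 3 G2/M genes was not were examined in the E14 mouse forebrain. The nuclei were chosen by their own RNA counts. A nucleus was taken when Pax6 and at least 2 of Emx2, Veph1, Dmrta2, Slc1a3 and Hes5 were detected (a count of 1 or more) and none of Top2a, Mki67, Cenpf, Eomes, Neurod2, Dlx1, Dlx6os1 and Otx2 was. This marker gate held 962 nuclei, called gate members below, of 201952 that had 800 to 6000 UMIs (unique molecular identifiers, which count RNA molecules), 300 to 3000 genes and at most 1% mitochondrial UMIs, or 0.476% of them. Single nucleus RNA sequencing had been run on flash frozen forebrain of 9 embryos of the MYT1L S710fsX strain, a frameshift allele on a C57BL/6 background. There were 3 wild type (WT) embryos, 3 heterozygous (Het) embryos with 1 mutant allele and 3 homozygous knockouts (KO). Each had a library labelled run 1 and a library labelled run 2, so that 18 libraries stood for 9 animals. The labels do not say what a run was. The genotypes come from the library titles, and a genotype tag that reads WT for all 9 libraries of run 1 goes against these titles. The allele is a frameshift, whose transcript can still be counted, and the level of Myt1l RNA was not used to check the genotypes.

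Radial glia line the ventricle of the embryonic forebrain, divide there and span the wall with a long process that guides migrating neurons. Their nuclei move with the cell cycle, away from the ventricle for DNA synthesis and back to it for mitosis. In the pallium, which forms the cortex, they are held as progenitors by Notch signalling through Hes genes, and they make excitatory neurons either directly or through intermediate progenitors that express Eomes. MYT1L is a zinc finger transcription factor of neurons made after the last division, and the study asked whether its loss changes the division and differentiation of progenitors before that stage.

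The gate members came to 66, 155 and 104 nuclei in the 3 WT embryos, 94, 98 and 75 in Het and 61, 157 and 152 in KO. Run 1 gave 245 of them and run 2 gave 717, at a median depth in the gate members of 3432 and 2210 UMIs. The gate members had a median of 2468 UMIs and 1612 genes, against 2562 and 1556 over all nuclei. Their summed UMIs ranged from 149869 to 449377 per animal and came to 2583268 in all, so a count of 0 over all gate members allows a level of up to 1.16 CPM (counts per 1000000 counts of the population). No cell barcode was shared by gate members of different libraries, while 2019 of 199933 distinct barcodes were shared among all nuclei. By Xist and 4 genes of the Y chromosome, WT 3 was female and the other 8 embryos were male. This goes against the study's description of its methods, which speaks of males and females in each E14 genotype, and could not be settled from the files. Of the gate members, 768 had exactly 2 of the 5 markers, 179 had 3, 14 had 4 and 1 had all 5.

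Promoters are shown first for S-phase genes, which E2F transcription factors control and by whose RNA the gate members are divided below, and for a target of Notch signalling. The windows run from 250 bases before to 50 bases after the RefSeq start of each gene in GRCm38.p6, and capitals mark the letters of a searched motif. Mcm6 and Mcm3 encode subunits of the helicase that opens DNA at replication origins, Dtl a factor that directs replication proteins to degradation, Hells a chromatin remodeller, and Hes5 a repressor that keeps progenitors from differentiating. The windows are Mcm6 at chr1:128359656-128359955 (minus strand), Mcm3 at chr1:20820263-20820562 (minus), Dtl at chr1:191575495-191575794 (minus), Hells at chr19:38930740-38931039 (plus) and Hes5 at chr4:154960673-154960972 (plus).
Mcm6: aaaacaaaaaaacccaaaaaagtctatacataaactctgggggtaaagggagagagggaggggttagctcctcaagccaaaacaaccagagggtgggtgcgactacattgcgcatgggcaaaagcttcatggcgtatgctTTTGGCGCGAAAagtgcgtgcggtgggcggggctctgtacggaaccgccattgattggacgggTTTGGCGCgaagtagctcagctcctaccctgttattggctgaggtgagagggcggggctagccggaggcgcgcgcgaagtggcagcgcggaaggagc
Mcm3: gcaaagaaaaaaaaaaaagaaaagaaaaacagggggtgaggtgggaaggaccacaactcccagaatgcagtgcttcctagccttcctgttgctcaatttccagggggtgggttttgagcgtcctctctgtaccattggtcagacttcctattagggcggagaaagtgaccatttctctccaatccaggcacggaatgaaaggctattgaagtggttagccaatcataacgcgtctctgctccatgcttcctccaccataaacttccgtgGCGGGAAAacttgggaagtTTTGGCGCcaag
Dtl: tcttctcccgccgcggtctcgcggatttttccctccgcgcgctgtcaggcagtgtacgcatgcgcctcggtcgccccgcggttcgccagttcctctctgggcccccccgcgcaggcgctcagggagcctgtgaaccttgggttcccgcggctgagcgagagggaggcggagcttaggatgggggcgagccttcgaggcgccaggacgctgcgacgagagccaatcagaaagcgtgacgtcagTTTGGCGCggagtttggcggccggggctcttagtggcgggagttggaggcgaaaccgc
Hells: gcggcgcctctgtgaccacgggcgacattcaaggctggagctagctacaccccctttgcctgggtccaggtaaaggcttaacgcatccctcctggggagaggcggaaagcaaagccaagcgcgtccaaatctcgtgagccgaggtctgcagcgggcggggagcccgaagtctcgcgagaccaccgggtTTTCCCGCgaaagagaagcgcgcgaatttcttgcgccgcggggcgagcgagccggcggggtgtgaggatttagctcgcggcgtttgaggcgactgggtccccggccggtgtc
Hes5: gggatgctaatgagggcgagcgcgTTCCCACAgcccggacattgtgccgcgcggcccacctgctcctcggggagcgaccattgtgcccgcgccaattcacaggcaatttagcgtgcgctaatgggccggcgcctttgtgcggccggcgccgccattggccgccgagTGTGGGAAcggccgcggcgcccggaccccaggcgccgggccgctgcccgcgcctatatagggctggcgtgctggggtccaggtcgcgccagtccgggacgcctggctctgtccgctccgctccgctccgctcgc

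The E2F motif was searched as TTTCCCGC, TTTGGCGC and TTTCGCGC on both strands. These letters were in 606 of 32851 promoter windows of this length (1.84%). They were in 14 of 36 windows of the S-phase list, which covers 14 of the 32 genes with a window, and in 0 of 20 windows of the radial glia core list. Mcm6 held 3 matches, of which a pair overlap by 4 bases, Mcm3 held 2, and Dtl and Hells held 1 each. The motif of RBPJ, the DNA binding protein of Notch signalling, was searched as TGTGGGAA and CGTGGGAA on both strands and was in 845 of 32851 windows (2.57%). It was in 3 of 22 windows of the Notch list, those of Hes5, Hey2 and Lfng, with 2 matches each in Hes5 and Hey2, and in 2 of 20 windows of the radial glia core list and 2 of 25 of the G2/M list. A match is a description of the letters and not of binding.

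The genes that defined the gate are given as a description, because they chose the nuclei. Slc1a3, the glial glutamate transporter, was detected in 89.5% of the gate members, in 19.8% of all other nuclei and in 11.1% of excitatory neurons (Neurod2 and Neurod6 detected, with none of the other exclusion genes and no Pax6), whose median depth was 3193 UMIs. Veph1 was detected in 57.6% of the gate members and 5.89% of the others, Emx2 in 27.3% and 4.92%, Dmrta2 in 26.3% and 4.67%, and Hes5 in 21.1% and 2.96%. All 5 were thus seen in a larger share of the gate members than of the other nuclei. As levels in summed counts, Slc1a3 was at 879 ± 149 CPM in the gate members (SD, n = 9 animals) and at 159 CPM in the other nuclei. Pax6, the transcription factor of pallial progenitors, was at 536 ± 66.5 against 69.6 CPM. Just outside the gate lay 1317 nuclei with Pax6 and 1 of the 5 markers, and 1867 with at least 2 of the 5 and no Pax6. Tnc, which the rule did not use, was at 534 ± 115 CPM in gate members with exactly 2 markers, 273 ± 87.8 with 1 marker and 560 ± 107 without Pax6.

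Markers that the rule did not use followed the label. The radial glia core list has 20 genes, and 19 had a higher mean level in the gate members than in the other nuclei, 14 of them by over 2-fold. Its summed level was 8533 ± 678 CPM (SD, n = 9), against 3465 in other nuclei, 2927 in Eomes intermediate progenitors and 1760 in excitatory neurons. Ptprz1, a receptor phosphatase of radial glia, was at 2051 ± 346 CPM against 840 in the other nuclei. Gli3, which represses ventral fate in the pallium, was at 1361 ± 135 against 320 CPM. Qk, an RNA binding protein of glial progenitors, was at 1473 ± 202 against 670 CPM, and Msi2, a translation regulator of stem cells, at 1626 ± 168 against 845 CPM. Fabp7, the lipid binding protein that marks radial glia, was at 114 ± 24.9 against 23.6 CPM.

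The closest population was the same gate with Top2a, Mki67 or Cenpf detected (below, the cycling set), which held 4488 nuclei. Its radial glia core sum of 8954 CPM lay near that of the gate members. The list of 26 G2/M genes, which leaves out the 3 genes of the rule, was at 509 ± 85.7 CPM in the gate members and 5230 in the cycling set. Smc4, a condensin subunit that compacts chromosomes, was at 191 ± 19.98 CPM in gate members and 710 in the cycling set, which is the highest level of a gene of this list in the gate members. None of the 26 was higher in the gate members than in the other nuclei. The gate excluded nuclei with Top2a, Mki67 or Cenpf, so these lower levels follow in part from the choice. Eomes progenitors and excitatory neurons, which also had to lack these 3 genes, had lower sums than the gate members, at 301 and 157 CPM.

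**Figure D1:**
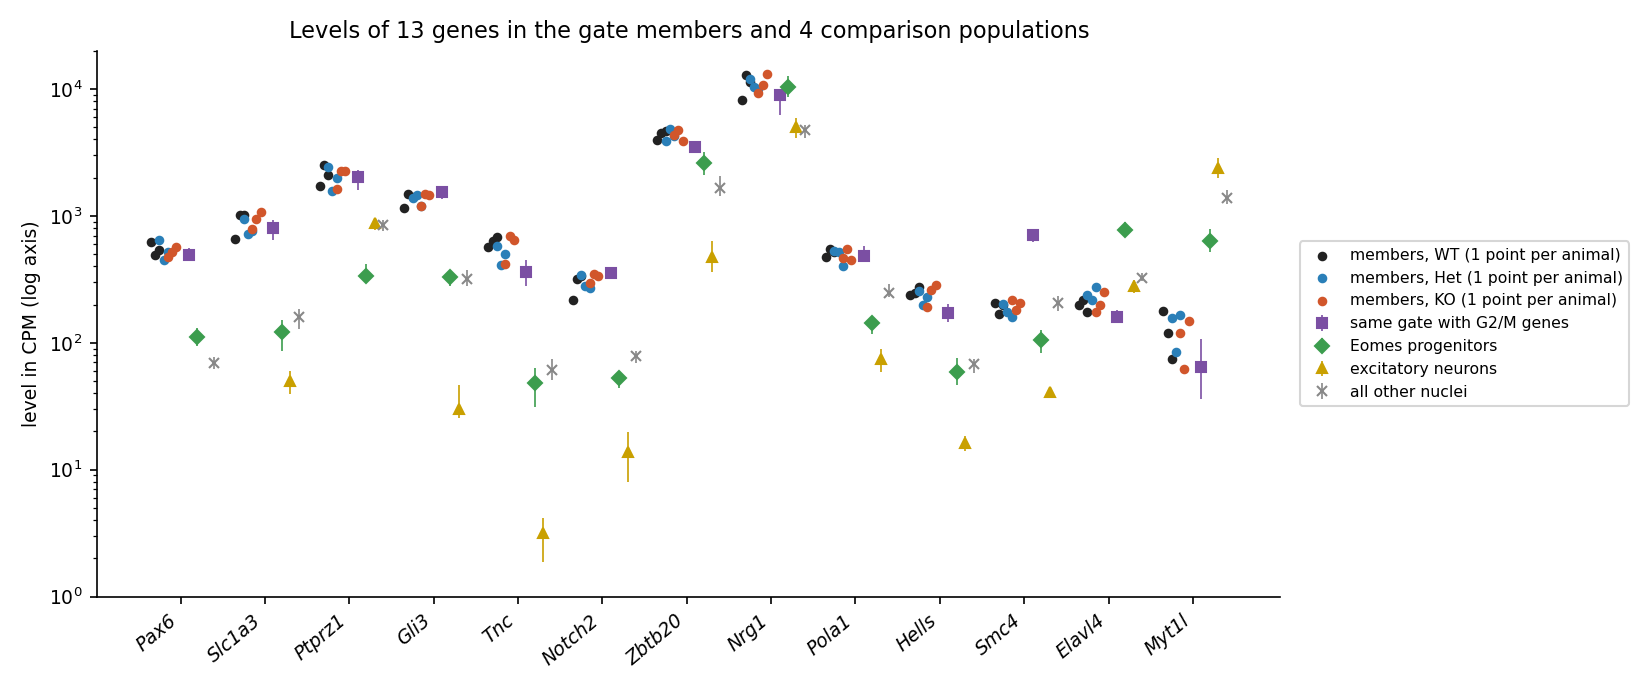
Levels in CPM (log axis) of 13 genes; round points are the gate members of 1 animal each, the other symbols are the mean over 9 animals of the cycling set, Eomes progenitors, excitatory neurons and all other nuclei, with bars from the lowest to the highest animal. Pax6 in neurons, which had to lack it, is below the axis, and Smc4 separates the gate members (191 CPM) from the cycling set (710 CPM) while Gli3 and Ptprz1 do not.

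The 10 genes outside the rule with the highest ratio to the other nuclei, among those at 50 CPM or more, are given as a description with no test. Sned1, a matrix glycoprotein (chr1:93235841-93301065 in mm10), had the highest ratio at 10.8-fold, with 81.3 ± 32.0 CPM in gate members and 6.61 in the others. Tnc, the matrix protein tenascin C of the ventricular zone (chr4:63959785-64047015), was at 572 ± 108 CPM and 9.24-fold over the other nuclei. In the WT embryos Tnc was at 571, 639 and 686 CPM, in Het at 577, 413 and 498, and in KO at 419, 700 and 645, so the genotypes overlapped. Eva1c, a receptor for the guidance protein Slit (5.41-fold), Lrp4, a low density lipoprotein receptor relative that binds Wnt antagonists (5.65-fold), Dkk3, a secreted protein of the Dickkopf family (5.73-fold), Htra1, a secreted serine protease (6.03-fold), and Emid1, an emilin domain matrix protein (6.43-fold), followed. The other 3 of the 10 highest were Adamts19, a metalloprotease (6.51-fold), Tmem132c, a transmembrane protein (5.42-fold), and the uncharacterised E330013P04Rik (7.58-fold). Sned1 was also 3.51-fold over the cycling set and Tmem132c 2.21-fold, while Eva1c and Lrp4 were within 1.12-fold of it.

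Notch receptors and their partners were well represented. The list has 21 genes, of which Hes5 belongs to the rule and is left out here. The other 20 summed to 3567 ± 132 CPM (SD, n = 9), against 1870 in the other nuclei and 1014 in neurons, with 16 of 20 higher than in the other nuclei and 9 by over 2-fold. The cycling set, at 3321 ± 70.4 CPM, lay much nearer to the gate members. The receptors Notch1, Notch2 and Notch3 were at 257 ± 25.2, 304 ± 42.4 and 181 ± 46.8 CPM, against 99.1, 78.7 and 47.3 in the other nuclei. Maml2, a coactivator of the cleaved receptor, was at 1146 ± 78.6 against 360 CPM. The ligand Dll1 was set beside another population, with 35.4 ± 16.8 CPM in gate members and 98.8 in Eomes progenitors, which the gate excludes. Hes1, a repressor downstream of Notch, was at 34.5 ± 18.3 against 6.96 CPM in the other nuclei.

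Genes of other progenitor pathways were given by list in the same way. The share of all genes that were higher in the gate members than in the other nuclei is not given. The counts by list, here and in the other paragraphs, thus have no background to be judged by. Of 28 Wnt genes 23 were higher in the gate members than in other nuclei, with the repressor Tcf7l1 at 346 ± 54.5 against 94.1 CPM and the secreted antagonist Sfrp1 at 441 ± 176 against 134. All 13 Hippo genes were higher, led in ratio by the coactivator Wwtr1 (TAZ) at 240 ± 38.7 against 49.9 CPM. Of 23 genes for fibroblast growth factor and related signalling 19 were higher, with Cdon, a Hedgehog coreceptor, at 1735 ± 200 against 446 CPM and the receptor Fgfr2 at 966 ± 102 against 559. Erbb4, a neuregulin receptor, was the other way round at 264 ± 225 against 2948 CPM. These 3 lists were at similar summed levels in the cycling set, with 3763 ± 360 CPM in the gate members and 3861 ± 291 in the cycling set for Wnt, 1510 ± 73.9 and 1506 ± 49.2 for Hippo and 5379 ± 405 and 5462 ± 190 for the growth factors. The growth factor list as a sum was also similar in the other nuclei, at 5413 CPM.

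Nrg1, which encodes the ligand of that receptor (chr8:31814551-32884029), was the highest of the antihem and ventral pallium list. The WT embryos had 8233, 12807 and 11359 CPM, the Het embryos 11950.4, 10363 and 9957, and the KO embryos 9336, 10764 and 13081, with overlap of all 3 genotypes. It was seen in 94.2% of the gate members and at 4708 CPM in the other nuclei, but Eomes progenitors had a similar 10273 CPM. Zbtb20, a transcriptional repressor of the progenitor lineage (chr16:42875881-43642602), was at 4347 ± 372 CPM and seen in 97.1% of the gate members. Its level was lower in each comparison set in turn, with 3469 CPM in the cycling set, 2586 in Eomes progenitors and 472 in neurons. Hmga2, a chromatin protein of young progenitors, was at 290 ± 76.5 CPM against 75.9 in other nuclei.

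Myt1l itself (chr12:29528384-29923213) was low. The WT embryos had 179, 119 and 74.9 CPM, the Het embryos 157, 83.8 and 165, and the KO embryos 120, 62.2 and 148. The 3 genotypes overlapped, and the KO change of -0.14 on the log2 scale had a 95% interval from -0.81 to 0.53. Excitatory neurons had 2383 CPM and Eomes progenitors 632. In the neurons the WT embryos had 1971, 2261 and 2099 CPM, the Het embryos 2256, 2485 and 2486, and the KO embryos 2486, 2839 and 2566. There KO lay above WT without overlap, with a change of 0.34 that did not pass (SE 0.0808, edgeR adjusted p = 0.0814), and in run 1 alone the genotypes overlapped (2219 to 2946 CPM in WT and 2740 to 3417 in KO). Its paralogs Myt1 and St18 were at 28.5 ± 12.3 and 24.7 ± 24.2 CPM. Pooled over animals, these 3 genes summed to 1699 CPM in 26 gate members with markers of Cajal-Retzius cells, described below. In the other gate members they summed to 98.8 CPM. The part of the 26 nuclei in the Myt1l values of single embryos was not tested.

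Markers of other cell types were summed by list. The rule excluded nuclei with Neurod2, Dlx1, Dlx6os1 or Otx2, so low sums of related markers follow in part from the gate. The 10 microglia genes summed to 16.8 ± 13.9 CPM with C1qa, C1qb, C1qc and Trem2 at 0, the 11 vascular genes to 48.3 ± 13.5 with Col1a1 at 0, the 7 choroid plexus genes to 21.1 ± 7.98 with Ttr at 0, the 12 subpallial progenitor genes to 72.8 ± 46.9 with Olig1 at 0, and the 7 oligodendrocyte progenitor genes to 40.0 ± 45.7. Of 10 diencephalon markers 4 were at 0 (Wnt3, Olig3, Nkx2-4 and Irx3), and Tcf7l2 made up 205 of their 247 CPM. The vascular, choroid plexus and diencephalon sums were higher than in the other nuclei, which had 26.3, 7.89 and 121 CPM. Part of the vascular and choroid plexus sums came from 18 gate members described below. The microglia, subpallial and oligodendrocyte progenitor sums were lower than in the other nuclei, which had 25.3, 643 and 333 CPM. The 12 inhibitory neuron genes summed to 3534 CPM, of which Meis2, also a gene of pallial progenitors, made up 3374. The 12 excitatory neuron markers summed to 1862 ± 368 CPM against 8913 in neurons, and to 1359 CPM without the 26 nuclei described next.

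A small group of nuclei carried markers of Cajal-Retzius cells, the early neurons of the cortical surface. In 26 gate members at least 3 of 8 Cajal-Retzius markers were detected, with a median of 4283 UMIs, and these nuclei held 95.4% of the Reln counts (2308 of 2418 UMIs). Reln is itself 1 of the 8 markers, so this share and the sums of the 8 markers follow in part from the choice of these nuclei. Reln encodes reelin, the secreted protein by which Cajal-Retzius cells order the cortical layers. The 8 markers summed to 1303 ± 625 CPM over the 9 animals, from 213 to 2131, and to 89.6 CPM once these nuclei were left out. Whether such nuclei were doublets or cells between states was not tested. Without them the KO difference in the S-phase share given below was -7.98 points and the Kcnip4 difference 1.33 on the log2 scale.

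A further 18 nuclei expressed at least 2 genes of the cortical hem, the Wnt and Bmp source at the medial edge of the pallium. Pooled over animals, which leaves no replicate error, Rspo2, a Wnt agonist, was at 2247 CPM in them and 1.24 in the other gate members. Rspo2, Lmx1a and Wnt8b are themselves in the list that chose them. Outside that list, Nrg1 was at 438 CPM in these nuclei and 11747 in the other gate members, and Meis2 at 219 and 3704. Zbtb20 was the reverse, with 7631 and 4386 CPM. The choroid plexus list summed to 423 CPM in these nuclei and 7.44 in the other gate members. For the vascular list the sums were 248 and 40.9 CPM, and for the diencephalon list 146 and 254. These sums may include genes that chose the nuclei.

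S-phase genes split the gate members further. The 44 genes summed to 3298 ± 268 CPM, against 1683 in the other nuclei and 654 in neurons, and all 44 were higher than in the other nuclei, 18 by over 2-fold. Pola1, the catalytic subunit of the polymerase that starts DNA strands, was at 494 ± 50.5 CPM. Hells was at 242 ± 32.1 CPM against 68.0 in the other nuclei, Dtl at 186 ± 25.1 against 52.0, and Mcm6 at 129 ± 27.1 against 34.9. The cycling set had a sum of 3597 CPM.

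To compare nuclei at equal depth, each was thinned to 1000 UMIs by 1 random draw, which left out 9 gate members. Of the remaining 953, 158 (16.6%) had none of the 44 genes, 312 (32.7%) had 1 or 2 and 483 (50.7%) had 3 or more, with a median of 3 and a maximum of 15. At the same depth 3 or more were seen in 2.48% of 10581 excitatory neurons, 13.7% of 7272 Eomes progenitors and 52.5% of 4469 nuclei of the cycling set. RNA of S-phase genes was thus seen in gate members in which none of the 3 G2/M genes was detected.

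Gate members with 3 or more S-phase genes were set beside those with 0, pooled over animals and without the nuclei with Cajal-Retzius markers. The list that made the split was at 5317 and 700 CPM by construction. Among genes outside it, E2f1, a transcription factor that drives S-phase genes, was at 115 and 15.002 CPM. The cyclin gene Ccnd2 was at 436 and 283 CPM, and Meis2 at 3979 and 2500. Zbtb20 was the other way round at 3814 and 5886 CPM, as were Tmem132c at 209 and 740 and Erbb4 at 115 and 438. The Erbb4 counts were concentrated, with 35.2% of those of all 962 gate members in 5 nuclei. In Het 1, 5 nuclei held 83.0% of 174 counts. The part of such nuclei in the Erbb4 values of the split was not tested. Both sets had a similar median depth (2389 and 2698 UMIs).

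Neurog2, the factor that starts neurogenesis, was detected in 11.3% of the gate members at full depth, in 28.2% of Eomes progenitors and in 4.61% of excitatory neurons. At 1000 UMIs it was seen in 5.14% of the gate members and 1.57% of excitatory neurons, in 3.52% (17 nuclei) of gate members with 3 or more S-phase genes and in 6.81% (32 nuclei) of those with fewer. The 109 nuclei with Neurog2 at full depth, beside the 827 without it (pooled, no replicate error, nuclei with Cajal-Retzius markers left out), had more Dll1 (104 against 22.1 CPM) and more of the neuronal RNA binding gene Elavl4 (352 against 182 CPM). They had less Tnc (274 against 662 CPM), less Fabp7 (34.6 against 127 CPM) and less Qk (994 against 1619 CPM). These genes were picked after their values were seen, and the sum of the 20 radial glia core genes differed less, at 7385 CPM with Neurog2 and 9144 without.

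Whether loss of MYT1L changed the number or cycle state of these radial glia was asked with 5 shares per animal, compared by two-sided exact permutation tests that cannot go below 0.1 for 3 animals against 3. In WT the gate members made up 0.456 ± 0.157% of nuclei (SD, n = 3 in each genotype), in Het 0.424 ± 0.0814% and in KO 0.529 ± 0.117%, with overlapping ranges (exact permutation p = 0.6 for KO and 0.9 for Het). Eomes progenitors, as a share of themselves and the gate members, were at 89.0 ± 3.01%, 89.4 ± 1.63% and 88.6 ± 2.39% (exact permutation p = 0.7 and 0.8). Neurog2 was seen at 1000 UMIs in 4.36 ± 2.21%, 6.59 ± 2.59% and 5.11 ± 0.557% of the gate members (exact permutation p = 0.8 and 0.4). For these 3 shares the ranges of the genotypes overlapped.

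In the 1 random thinning drawn, the share with 3 or more S-phase genes was lower in every mutant embryo than in every WT embryo. The closest were WT 2, with 83 of 155 nuclei, and KO 2, with 83 of 157. Whether another draw would keep them apart was not tested. The WT embryos had 54.7, 53.5 and 60.8%, the Het embryos 44.0, 41.8 and 49.3%, and the KO embryos 41.0, 52.9 and 51.3%. The means were 56.3 ± 3.89%, 45.04 ± 3.86% and 48.4 ± 6.46% (SD, n = 3). The Het difference of -11.3 percentage points and the KO difference of -7.95 both had an exact permutation p = 0.1, which is the floor for groups of this size, and adjusted values over the 5 shares of 0.5 and 0.25. Over the number of mutant alleles the slope was -3.97 points per allele (exact permutation p = 0.155, adjusted 0.387). Binomial intervals of single animals, which cover counting error alone, were wide, for example 28.6 to 54.3% in KO 1 (exact Clopper-Pearson, 95%).

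The values differed between the runs and without thinning. Whether the genotype difference depended on run or depth was not tested. In run 1 the WT embryos had 69.2, 58.3 and 65.2%, the Het embryos 55.0, 40.7 and 50%, and the KO embryos 36.4, 52.3 and 38.5%, on 13 to 44 nuclei per animal. There the slope was -10.9 points per allele (exact permutation p = 0.00833, adjusted 0.0417) and the KO difference -21.9 points. Of 21 alternative settings for the slope, 20 gave the same outcome as the main setting and 1 a stronger outcome. In run 2 the WT embryos had 51.0, 52.1 and 59.5%, the Het embryos 40.8, 42.3 and 48.8%, and the KO embryos 43.6, 53.1 and 54.0%, so KO overlapped WT (difference -3.95 points, exact permutation p = 0.6), while Het did not (-10.2 points, exact permutation p = 0.1). Without thinning the WT share was 76.1 ± 7.34%, the Het share 71.6 ± 5.01% and the KO share 74.9 ± 2.03% (SD, n = 3 each), with a KO difference of -1.23 points, and median depths of the gate members ran from 1972 UMIs in WT 1 to 2855 in Het 2. The cut of 3 genes was kept there, so the unthinned shares have another base. In the cycling set the thinned share ran from 49.6 to 55.9% in the WT embryos, from 49.0 to 53.9% in the Het embryos and from 52.7 to 55.8% in the KO embryos, and in excitatory neurons it stayed between 1.87 and 2.93% in all 9 animals.

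**Figure D2:**
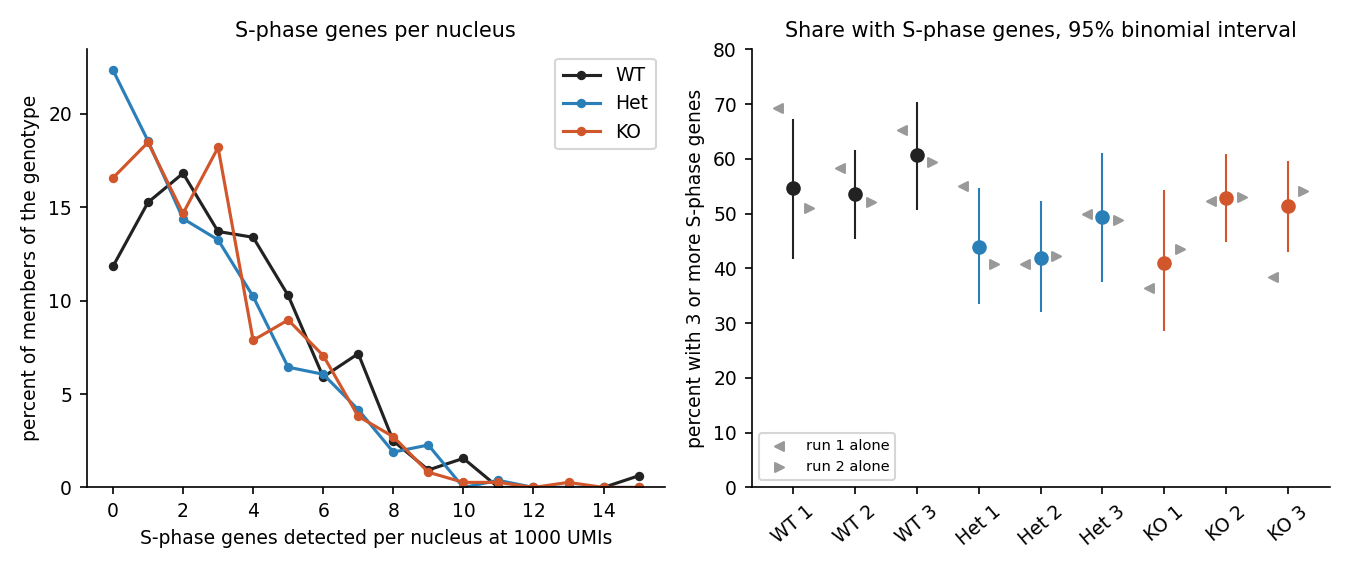
Left, percent of the gate members of a genotype (vertical axis) with a given number of S-phase genes at 1000 UMIs (horizontal axis); right, percent with 3 or more per animal, with a 95% binomial interval, and run 1 and run 2 alone as grey triangles. All 3 WT embryos (53.5 to 60.8%) lie above all Het (41.8 to 49.3%) and KO embryos (41.0 to 52.9%), and in run 2 alone KO overlaps WT.

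The share of the gate without G2/M genes, among it and the cycling set, was 15.7, 16.6 and 17.1% in the WT embryos, 19.9, 14.98 and 16.7% in the Het embryos and 17.8, 19.7 and 19.7% in the KO embryos. Every KO embryo was thus above every WT embryo, and Het overlapped both. The KO difference was 2.61 percentage points (exact permutation p = 0.1, adjusted 0.25) and the slope 1.30 points per allele (exact permutation p = 0.0810, adjusted 0.387). The KO difference ranged from 0.883 points when 3 of the 5 markers were asked for to 10.6 points when all nuclei were thinned to 800 UMIs before the gate was applied. Thinning changes which nuclei count as lacking the 3 genes, so its points have another base. Detection depends on depth, and the cycling set had a median of 3313 UMIs against 2468 in the gate members. The Het difference of 0.742 points (exact permutation p = 0.8) ranged from -0.615 without Het 1 to 9.004 points in the thinned nuclei, so its sign changed with the setting.

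Expression was compared with counts summed per animal over the gate members, with 5815 genes tested by edgeR's quasi-likelihood test. No gene passed an adjusted p under 0.05 with a log2 change beyond 0.2 between KO and WT, Het and WT or KO and Het, and none in the test over all 3 genotypes (0% of genes called in each). At an unadjusted p under 0.05 there were 191, 219, 196 and 188 genes (3.28, 3.77, 3.37 and 3.23%), and DESeq2 called 0 with 69, 82, 62 and 50 at that level. In the cycling set, which has more nuclei, KO against WT gave 0 of 11778 genes by edgeR (382 had an unadjusted p below 0.05). Of 10117 genes tested for a KO change that differed between the cycling set and the gate members, 0 were called (428 with an unadjusted p below 0.05). The gate members had fewer nuclei than the cycling set (962 against 4488) and fewer UMIs per nucleus (median 2468 against 3313). The part of each in the number of genes tested or called was not tested.

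The genes with the lowest p in each direction are given as values that did not pass; their edgeR adjusted p was 1.00 for all 20 against WT and 0.998 for the 10 between KO and Het. Pcsk5, a proprotein convertase (chr19:17432319-17837632), was at 106, 102 and 112 CPM in the WT embryos, 102, 96.7 and 160 in the Het embryos and 158, 193 and 172 in the KO embryos. The KO embryos lay above all WT embryos, with a log2 change of 0.73 (SE 0.209, 95% interval 0.30 to 1.16, edgeR unadjusted p = 0.00216). Sox11, a transcription factor of early neurons (chr12:27334264-27342574), was at 492, 342 and 408 CPM in the WT embryos, 397, 219 and 423 in the Het embryos and 239, 253 and 257 in the KO embryos. Here the KO embryos lay below all WT embryos, with a log2 change of -0.69 (SE 0.204, 95% interval -1.11 to -0.26, edgeR unadjusted p = 0.00288). Over all 5815 genes, KO lay above WT without overlap for 4.73% and below it for 4.63%. The other 8 were Oxsr1, a kinase of ion transport (log2 change 0.90), Fndc3b, a membrane protein (0.61), Ostm1, a lysosomal chloride transport subunit (0.49), and Rae1, an mRNA export factor (0.95), on the higher side, and 6720427I07Rik (-1.17), the translation repressor Eif4ebp2 (-0.93), the mitochondrial ribosomal gene Mrpl1 (-1.08) and the secreted neuronal protein Nell2 (-0.74) on the lower side.

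Between Het and WT, Vangl2, a planar polarity protein (chr1:172000960-172028444), was at 213, 211 and 217 CPM in WT and 111, 148 and 132 in Het, with 130, 195 and 198 in KO. The Het embryos lay below all WT embryos (log2 change -0.70, SE 0.200, edgeR unadjusted p = 0.00213). Adarb2, an RNA editing enzyme relative, was at 39.9, 35.6 and 14.99 CPM in WT and 152, 64.5 and 79.9 in Het (log2 change 1.67, SE 0.383, edgeR unadjusted p = 0.000267). The other lowest values were Ccbe1 (2.31), Dnmbp (1.09), Uaca (1.62) and Ndst4 (1.49) on the higher side and Grm8 (-0.95), Adam23 (-0.95), Purb (-1.56) and Ttyh3 (-0.68) on the lower side. None of these 10 overlapped between Het and WT, as the choice of the lowest p favours; over all genes Het lay above WT without overlap for 5.21% and below it for 4.82%.

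Between KO and Het, Tmeff2, a transmembrane protein with follistatin domains, was at 64.6, 58.0 and 70.5 CPM in Het and 141, 99.9 and 122 in KO (log2 change 0.88, SE 0.244, edgeR unadjusted p = 0.00164). Cacna1a, a neuronal calcium channel subunit, was at 189, 222 and 169 CPM in Het and 158, 88.8 and 100.5 in KO (-0.85). Rspo2 (chr15:43020794-43170826) had the largest fitted change at 3.06, with 0, 22.6 and 14.1 CPM in Het, 185, 91.05 and 95.2 in KO and 0, 121 and 0 in WT. Its 172 counts came from 19 of the 962 nuclei, and 46 of the 51 counts in WT 2 came from 1 nucleus. The nuclei with at least 2 hem genes, which Rspo2 helped to choose, numbered 0, 3 and 0 in WT, 1, 3 and 1 in Het and 3, 5 and 2 in KO. Their part in the Rspo2 change was not tested. The remaining genes were 4732471J01Rik (1.33), Gm37311 (1.14) and the ribosomal gene Rpl3 (1.07) on the higher side, and Pus10 (-0.72), Ppp2r1a (-1.08), Rap1b (-1.08) and Cntn3 (-0.82) on the lower side.

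Of the lists, 0 genes were called in any, where 0% of all genes were. In KO against WT the median log2 change was -0.05 for 16 radial glia core genes tested, -0.01 for 14 Notch genes, 0.08 for 18 Wnt genes, 0.04 for 14 growth factor genes and 0.01 for 11 Hippo genes, beside 0.00 over all 5815 genes. The medians of the other progenitor lists were 0.00 for 24 chromatin regulators, 0.05 for 20 genes of apical junctions and adhesion, -0.08 for 14 pallial patterning genes, -0.02 for 12 genes of temporal progression, 0.13 for 9 genes of G1 and cell cycle exit and -0.17 for 5 genes of neurogenic commitment. Lists with fewer tested genes had medians of 0.16 for 6 genes of the hem and medial pallium, -0.06 for 6 of outer radial glia, -0.15 for 3 of G2/M, 0.01 for 3 of inhibitory neurons, -0.30 for 2 of astrocytes and ependyma, -0.28 for 2 of the antihem and 0.00 for 2 of the diencephalon. The lists of microglia, vascular, choroid plexus, oligodendrocyte progenitor and subpallial genes had no gene with enough counts to be tested. The S-phase list had 32 genes tested with a median of -0.09 and 22 below 0, and in Het a median of -0.17 with 24 below 0. Of all 5815 genes 2877 were below 0 in KO and 2913 in Het. In Het 4 of the 32, beside 3.77% of all genes, had an unadjusted p under 0.05, Pcna (-0.80), Uhrf1 (-0.81), Mcm6 (-0.50) and Atad2 (-0.44), and in KO none did. Pcna, the sliding clamp of DNA polymerase, was at 66.4, 68.9 and 56.2 CPM in the WT embryos, 36.9, 25.8 and 51.7 in the Het embryos and 32.6, 57.7 and 50.3 in the KO embryos. All 3 Het embryos and 2 of 3 KO embryos lay below the lowest WT embryo.

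The S-phase list summed to 3494 ± 241 CPM in the WT embryos, 3182 ± 93.3 in the Het embryos and 3218 ± 365 in the KO embryos (SD, n = 3 each). Mcm6, whose promoter is printed above, was at 120, 145 and 191 CPM in the WT embryos, 115, 100 and 118 in the Het embryos and 109, 138 and 124 in the KO embryos. Hells and Dtl, also printed above, had KO changes of -0.02 (95% interval -0.39 to 0.34) and 0.10 (-0.27 to 0.48). The excitatory neuron markers, 8 tested, had a KO median of -0.28 with 7 below 0, and 4 Cajal-Retzius markers had a KO median of 0.59 with 4 above 0. The 26 nuclei noted above numbered 3, 4 and 1 in the WT embryos, 2, 2 and 4 in Het and 3, 1 and 6 in KO, and leaving them out gave 0 called genes in each contrast. Without them 6 excitatory neuron markers could be tested, with a KO median of -0.38 and 6 below 0, and 1 Cajal-Retzius marker, at -0.05, while the S-phase medians stayed at -0.09 in KO and -0.17 in Het.

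**Figure D3:**
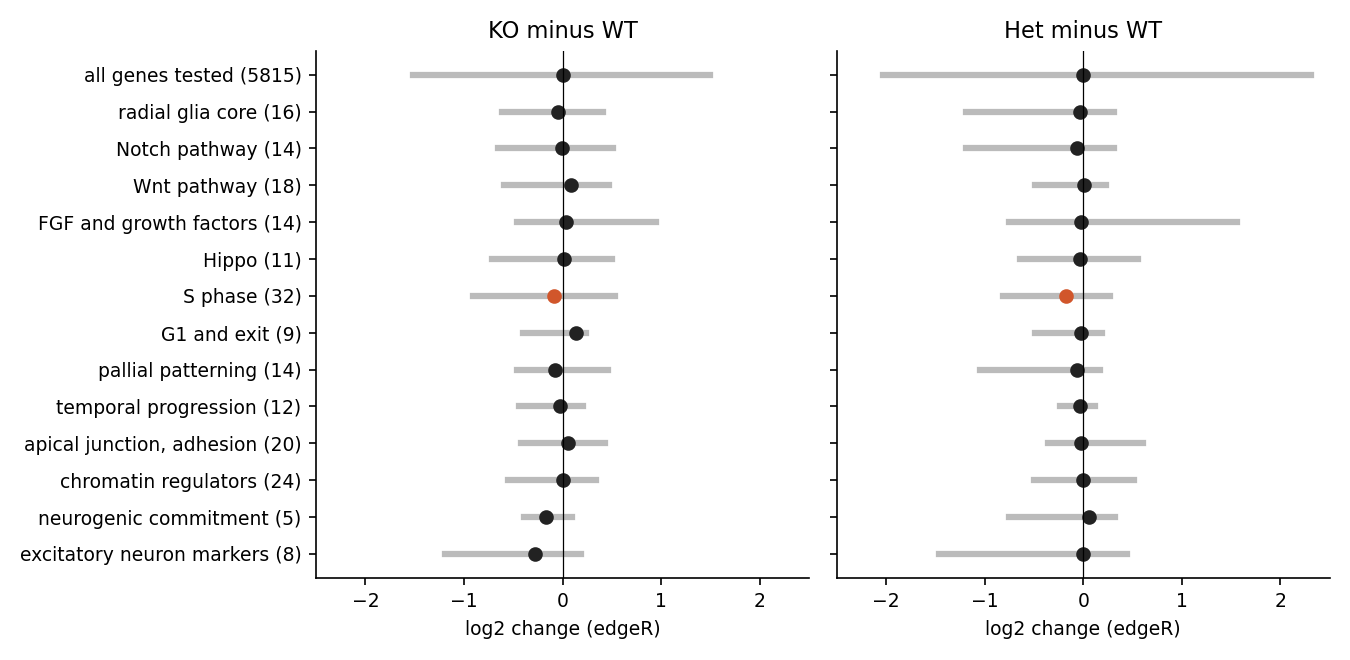
Median log2 change (points) and the range from the lowest to the highest gene (grey bars) of all genes tested and of 13 gene lists in the gate members, KO minus WT on the left and Het minus WT on the right, with the number of genes tested in brackets. The KO medians drawn lie between -0.28 and 0.13, and the S-phase list (orange) is at -0.09 in KO and -0.17 in Het.

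Of 17 genes that the study named at E14, which it chose on these animals, 8 were tested in the gate members and 0 called, with 4 KO changes above 0 and 4 below (median 0.12). Zbtb20 had a KO change of -0.01 (95% interval -0.29 to 0.27). Phf21a, a histone reader of a repressor complex, was at 664, 815 and 820 CPM in the WT embryos, 872, 909 and 846 in the Het embryos and 1158, 864 and 862 in the KO embryos. Every Het and KO embryo lay above every WT embryo, with a KO change of 0.30 (95% interval -0.01 to 0.62, edgeR unadjusted p = 0.0598). In each contrast with WT, 1 of the 8 genes lay above it without overlap. Over all 5815 genes the share was 4.73% for KO and 5.21% for Het. Tet2, a DNA demethylase, had the lowest KO change at -0.55 (-1.14 to 0.03) and Nbr1, an autophagy receptor, the highest at 0.41 (-0.24 to 1.07).

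Excitatory neurons gave a reference for what KO changed after the last division. Of 13767 genes tested there, 58 were called between KO and WT (0.421%), 38 higher and 20 lower. Of these, 44 were tested in the gate members, 0 were called and 4 had an unadjusted p under 0.05, beside 3.28% of all genes tested there. To ask whether the change itself differed, population and KO were fitted together with the animal as a block, and none of the 58 passed. Those not among the 44 had too few counts in the gate members for this fit to find a difference readily, so their result decides little. Nr6a1os, a long noncoding RNA, rose in neurons from 18.7 ± 2.25 to 37.6 ± 4.99 CPM (log2 change 1.04, edgeR adjusted p = 0.00431). In the gate members it was at 191 ± 12.9 CPM in WT and 190 ± 28.3 in KO (0.03, 95% interval -0.36 to 0.41). The difference of -0.97 (95% interval -1.44 to -0.51) had an edgeR adjusted p of 0.311, and it passed when KO 2 was left out (-1.19, edgeR adjusted p = 0.0400).

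Lef1, a Wnt transcription factor, rose by 0.78 in neurons and was at 171 ± 28.4 CPM in WT and 208 ± 66.1 in KO in the gate members (0.27, difference -0.47, edgeR adjusted p = 0.984). Fyco1, a vesicle transport adaptor, rose by 0.85 in neurons and had -0.02 in the gate members (difference -0.90, edgeR adjusted p = 0.972). Mgat4c, a glycosyltransferase, fell by 0.83 in neurons and had -0.73 in the gate members with a 95% interval from -1.71 to 0.25. The ion channel gene Trpm3 rose by 0.77 in neurons and had 0.55 in the gate members (-0.24 to 1.34). Abcg2, Grm5, Plppr5, Aatk and Ablim3, also called in neurons, had too few counts to be tested in the gate members.

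**Figure D4:**
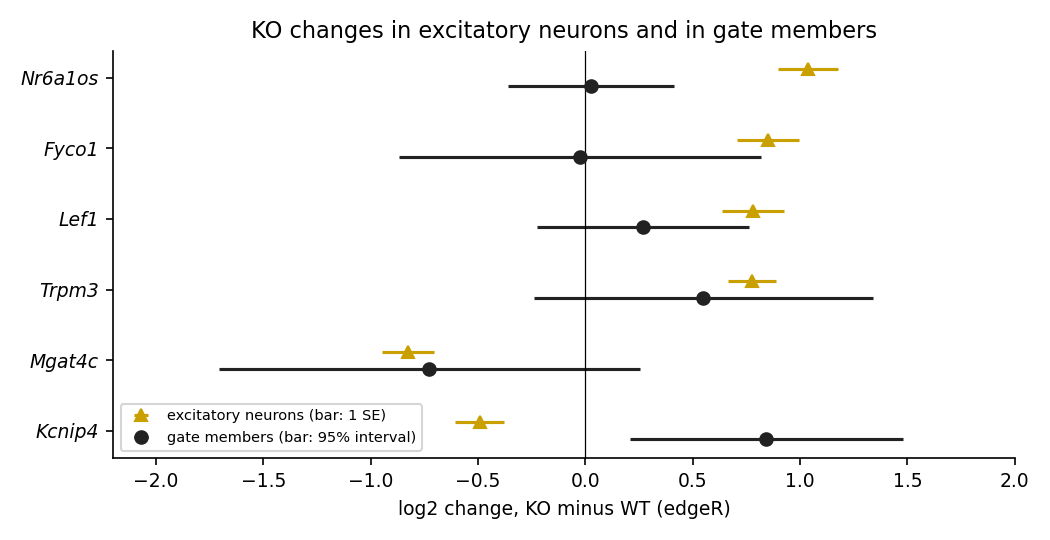
Log2 change, KO minus WT, of 6 genes in excitatory neurons (triangles, bar of 1 SE) and in the gate members (circles, bar of the 95% interval). Nr6a1os is at 1.04 in neurons and 0.03 in the gate members, and Kcnip4 lies on opposite sides of 0.

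The only gene of 12273 called for a KO change that differed between the gate members and the neurons was Kcnip4 (0.00815% called, with 615 at an unadjusted p under 0.05). In the gate members alone 5815 genes had enough counts to be tested. Many of the 12273 thus entered through the neurons, and for these a difference could hardly be called. Kcnip4 encodes a calcium binding subunit of potassium channels (chr5:48389502-49524907, minus strand). In the gate members it was at 365, 295 and 281 CPM in the WT embryos, 632, 406 and 132 in the Het embryos and 614, 406 and 656 in the KO embryos. The KO embryos lay above all WT embryos and the Het embryos on both sides, with a KO change of 0.84 (95% interval 0.21 to 1.48, edgeR adjusted p = 1.00). In neurons it was at 191 ± 19.3 CPM in WT and 133 ± 6.53 in KO (-0.49, edgeR adjusted p = 0.0735). The difference between the changes was 1.34 (SE 0.241, 95% interval 0.85 to 1.83, edgeR adjusted p = 0.0246).

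The Kcnip4 counts were concentrated in few nuclei, and the runs differed; the part of either in the difference was not tested. Kcnip4 was detected in 191 of 962 gate members, and the 5 nuclei with most counts held 42.8 to 78.9% of the counts of a WT embryo and 53.0 to 86.7% of those of a KO embryo, with 67 counts in 1 nucleus of KO 1. In run 1 the KO embryos were at 1294, 835 and 821 CPM and the WT embryos at 277, 369 and 411. In run 2 KO 1 and KO 2 were at 131 and 159 CPM, below the WT values of 386, 259 and 228, and KO 3 was at 605. The call was lost when WT 1, WT 2, WT 3 or KO 3 was left out (edgeR adjusted p = 0.0802, 0.108, 0.197 and 0.170), where the difference was still 1.36, 1.30, 1.31 and 1.11. It was also lost in run 1 alone (1.56, edgeR adjusted p = 0.148) and in run 2 alone (0.73, edgeR adjusted p = 1.00). So it was without an upper limit on UMIs and genes, where the difference was 0.72 (edgeR adjusted p = 0.987). It was kept without the 5% of nuclei with most UMIs (1.29, edgeR adjusted p = 0.0267).

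**Figure D5:**
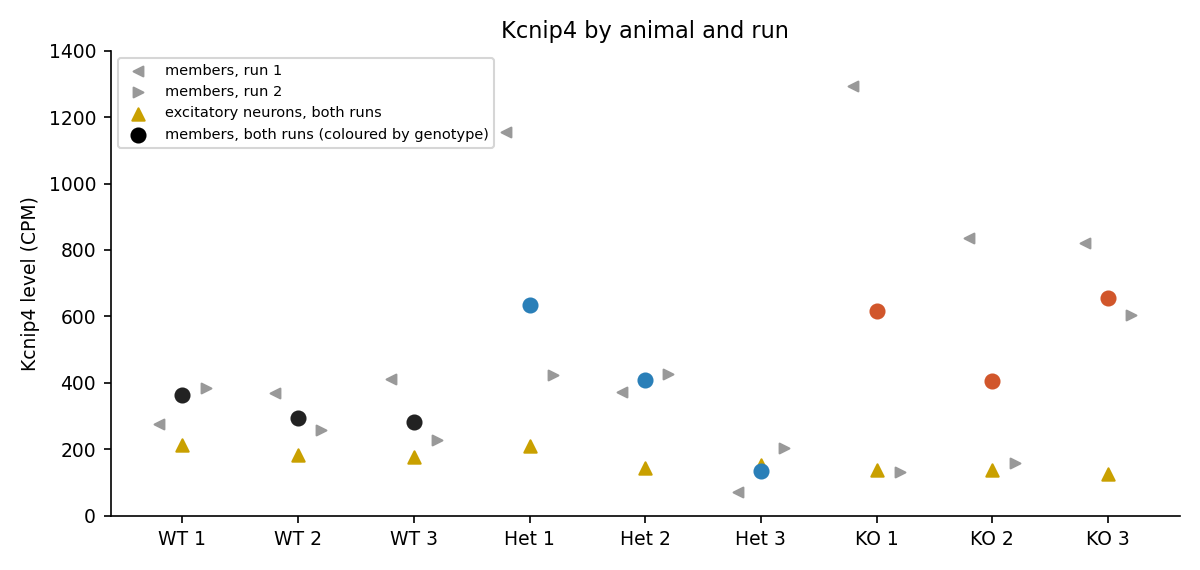
Kcnip4 level in CPM per animal; circles are the gate members over both runs (WT black, Het blue, KO orange), grey triangles run 1 (left) and run 2 (right) alone, and yellow triangles excitatory neurons. KO is above WT over both runs, while in run 2 KO 1 (131 CPM) and KO 2 (159 CPM) lie below all 3 WT embryos.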

How the data were processed

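Expected counts per gene and nucleus were used as deposited. The authors made these estimated counts with the ScaleRna pipeline (v1.4) on mm10 from split-pool barcoded libraries, 6.70 to 8.71% of entries were not whole, and the submitters' processing notes name Seurat 4.3.0, Scanpy 1.12.0 and DESeq2 1.38.3. Doublets were removed by the authors in their own analysis and not here, where the deposited barcodes were limited only by UMIs, genes and mitochondrial share. Counts of gate members were summed over both runs of an animal, rounded and tested with edgeR 4.0.16 (R 4.3.3; filterByExpr, TMM, quasi-likelihood F-test, genotype only, Benjamini-Hochberg over all genes tested); DESeq2 1.42.0 was an alternative. A level in CPM is the count per 1000000 counts of that population, and ratios to other nuclei add 1 CPM. Counts below 1 were not called detected, so sums of excluded genes can reach a few counts. Shares were compared by exact permutation (SciPy 1.17.1), with nuclei thinned to 1000 UMIs where stated. The fits were run on simulated counts with known changes, and the permutation code on values with known answers. The share of changes recovered is not given here. These runs thus do not say how small a change the gate members could show. Gene positions are GENCODE vM21 and promoters RefSeq.

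The members, gene lists and tests were chosen with earlier results of these data known. Genes named were those of the rule and Myt1l, Myt1 and St18, up to 5 per direction with the lowest p among genes of at least 20 CPM where fewer than 5 were called, the highest of each list, the 10 highest ratios at 50 CPM or more, and up to 5 per direction called in neurons. Other genes named, those within subsets of the gate members included, were chosen after their values were seen. Splits of the gate members by S-phase, Neurog2 or hem genes are pooled over animals. The embryos came from 3 litters, which the labels do not tie to replicate numbers, and the fits did not use these numbers: the 9 same-number correlations ran from 0.0341 to 0.217, with 5 above 0.1, and the 18 others from -0.169 to 0.0944.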

Additional observations from a re-analysis of the deposited data

Results flagged for a closer look

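Kcnip4 stood out because its KO change differed between the gate members and excitatory neurons (log2 difference 1.34, SE 0.241, edgeR adjusted p = 0.0246). KO was higher than WT in 3 of 3 embryos of the gate members over both runs, and the neurons had a KO change of -0.49 (edgeR adjusted p = 0.0735). Over the alternatives the difference ranged from 0.72 to 3.59. The part of the few nuclei with many Kcnip4 counts, and of run 1, in this value was not tested beyond the values given above.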

How the results depend on the processing

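The counts of called genes were 0 under TMM and RLE scaling, DESeq2, the replicate block, either run alone, 3 of 5 markers, the limit on log(genes)/log(UMIs) and no upper limit on UMIs or genes. Without a filter on low counts edgeR called 6 genes for KO against WT, 7 for Het against WT, 2 for KO against Het and 7 over all genotypes; these included Xist and Uty, which follow the sex of WT 3, and Erbb4, Kcnip4, Meg3 and Rspo2. Asking that no neuron marker be detected gave 1 for KO against WT, 1 for Het against WT and 1 over all genotypes, Reln in each. Leaving out 1 animal gave 0 to 1 in every contrast (Rspo2 without WT 2, Erbb4 without Het 2). The number of genes whose KO change differed from that in neurons (1) was 3 without a filter, 2 with log(genes)/log(UMIs) of at least 0.9, 2 with no upper limit, 4 with 3 of 5 markers, 9 without neuron markers, 0 in run 1 and 0 in run 2, and 0 to 7 with 1 animal left out (0 without WT 1, WT 2, WT 3 or KO 3 and 7 without KO 2). The slope of the S-phase share was -10.9 in run 1. With 1 animal left out the S-phase difference ranged from -10.2 to -4.24 for KO and from -13.4 to -9.08 for Het. The replicate block, which pairs animals by the number in their labels, gave 0 called genes in each contrast (232, 255, 223 and 233 at an unadjusted p under 0.05). For the shares it flipped the signs of the paired differences, a test that cannot go below 0.25. The KO differences in the share of nuclei in the gate, the S-phase and the outside-G2/M share were at this floor (exact sign-flip test p = 0.25). Of 9 animals, 7 correlated best with their own number in both other genotypes. Of 55335 genes, 5815 had enough counts to be tested in the summed gate members, whose shallowest animal had 149869 UMIs. The cycling set had 11778 tested genes and excitatory neurons had 13767. Leaving out the nuclei with Cajal-Retzius markers was added after the data were seen. The causes of these changes were not tested.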
